A study of Homo sapiens with 4 samples.

Results

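The 10 genes described here encode the FOS and JUN subunits of the transcription factor AP-1 (FOS, FOSB, FOSL1, FOSL2, JUN, JUNB and JUND) and the immediate early factors EGR1, ATF3 and MYC. They were chosen by symbol from the 23615 gene symbols of the expression table, and each matched 1 symbol. RNA was measured in 4 libraries of day 14 cardiomyocyte cultures made from RUES2, a line of human embryonic stem cells, with 2 biological replicates for each of 2 routes of differentiation, all unsorted. Levels were given as FPKM, fragments scaled both to the length of the transcript and to the size of the library, so levels of different genes can be set side by side. In both routes a GSK3 inhibitor preceded induction. Activin A at 100 ng/ml was given first, and BMP4 at 5 ng/ml the following day, again with the GSK3 inhibitor. In the ECsXAV group, 200 ng/ml VEGF with bFGF and BMP4 was added on day 2 to derive anterior hemogenic endothelium, and 2 µM XAV, a tankyrase inhibitor that lowers Wnt/β-catenin signalling, was added on day 5. In the CPC group, cells passed through cardiac progenitors without the VEGF medium and received 1 µM XAV on day 3. The comparison of the routes therefore also compares media and the dose and day of XAV, and these cannot be told apart.

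Immediate early genes are transcribed within minutes of a stimulus from promoters that already hold their activators, and their mRNAs are short-lived. FOS and JUN proteins pair through leucine zippers and bind AP-1 sites, while FOS proteins cannot pair with each other, so the mix of subunits present sets which dimers can form. In heart cells these genes are known to respond to stretch, hypertrophic agonists and dissociation of the tissue, and ATF3, a member of the ATF/CREB family that pairs with JUN, is known as a stress-induced repressor.

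Cardiomyocyte markers dominated all 4 libraries, with 13500 to 15400 summed FPKM over 10 genes, whereas 10 endothelial markers summed to 23.7 to 28.9 FPKM. The step between the FPKM values that successive whole reads give placed the depth of ECsXAV replicate 2, CPC replicate 1 and CPC replicate 2 at 50.1%, 86.9% and 79.8% of that of ECsXAV replicate 1. Each library had 12070 to 12240 genes with at least 1 FPKM.

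JUND and JUN were the most abundant members in both groups, and FOSL1 was close to absent. Averaged over the 4 libraries, JUND stood at 43.6 FPKM, JUN at 25.4, EGR1 at 11.1, JUNB at 9.3, ATF3 at 8.6, FOS at 8.46 and FOSL2 at 2.42, and these 7 passed the filter of a mean of at least 1 FPKM. The other 3, FOSB at 0.643, MYC at 0.519 and FOSL1 at 0.0647 FPKM, were below it. In ECsXAV cardiomyocytes the libraries of JUND and JUN did not overlap, those of ATF3, JUNB and EGR1 did, and FOS lay below all of these. In CPC cardiomyocytes JUND was again alone at the top, EGR1 reached the range of JUN, FOS overlapped EGR1 and JUNB, and ATF3 lay below JUNB and above FOSL2 in both libraries.

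**Figure D1:**
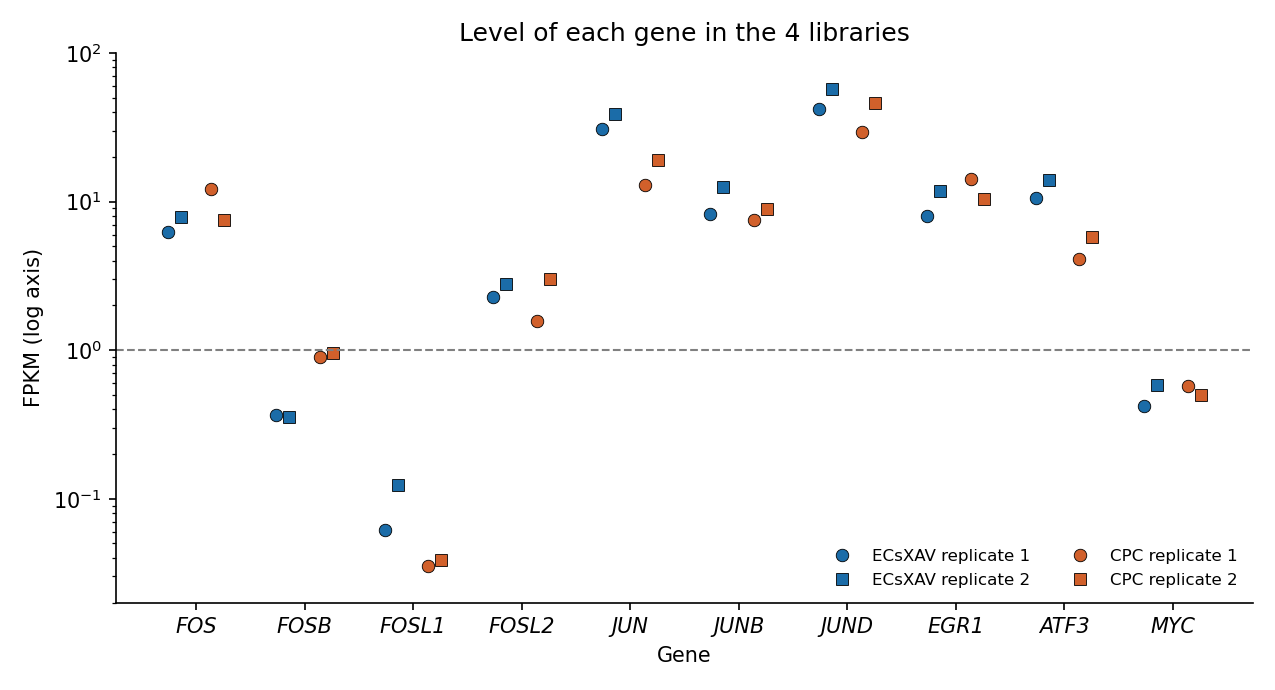
FPKM of each of the 10 genes (horizontal axis) in the 4 libraries on a log axis, with blue points for ECsXAV, orange points for CPC, circles for replicate 1 and squares for replicate 2; the dashed line marks the filter of 1 FPKM, which was applied to the mean. The 2 blue points lie above the 2 orange points for JUN, ATF3 and FOSL1 (at 1 or 2 reads) and below them for FOSB, while for FOS, FOSL2, JUNB, JUND, EGR1 and MYC the colours overlap.

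None of the 7 tested members passed the criterion, which asked for a fold change above 2 with an adjusted p below 0.05 (limma, Benjamini-Hochberg over 12398 genes), against 2.15% of all genes tested. At an unadjusted p under 0.05, 2 members passed, ATF3 and JUN, against 18.2% of all genes. The libraries of the groups did not overlap for these same 2 of the 7, against 49.8% of all genes tested. The difference between groups was over 2 times the larger replicate difference for JUN and ATF3 as well, again 2 of 7, against 18.2% of all genes. For 7 genes, these counts are near the background. The members' median difference, CPC minus ECsXAV, was -0.28 on the log2(FPKM + 1) scale and that of all genes tested was 0.00. Exact permutation over 4 libraries in 2 pairs yields a two-sided p of 0.333 at the least, and was therefore not used for single genes.

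JUN and ATF3 were lower in both CPC libraries than in both ECsXAV libraries. JUN, the founding member of the JUN family and the strongest activator among its 3 members, had 30.6 and 38.9 FPKM in ECsXAV and 12.9 and 19 FPKM in CPC cardiomyocytes. Its mean was 34.8 ± 5.85 (SD, n = 2) against 16 ± 4.31 FPKM, a 2.18-fold higher level in ECsXAV. The log2 difference was -1.09 with a standard error of 0.22 and a 95% interval from -1.66 to -0.51 (limma unadjusted p = 0.0048, adjusted p = 0.0869). This difference was 2.08 times the larger difference between replicates, so it only just cleared the multiple of 2. As inferred from the FPKM values, they stand for 2116 and 1347 reads in ECsXAV and 776 and 1049 in CPC libraries.

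ATF3 had 10.5 and 14 FPKM in ECsXAV and 4.08 and 5.75 FPKM in CPC cardiomyocytes, a mean of 12.3 ± 2.47 against 4.91 ± 1.18 (SD, n = 2) and a ratio of 2.5. Its log2 difference was -1.17 with a standard error of 0.21 and a 95% interval from -1.71 to -0.63 (limma unadjusted p = 0.00265, adjusted p = 0.0669). Here the difference was 2.85 times the larger replicate difference. The ratio of ATF3 to JUN was 0.344 and 0.361 in the ECsXAV and 0.315 and 0.302 in the CPC libraries, higher in both ECsXAV libraries. In bulk cultures, fewer cells that express a gene and less RNA per cell cannot be told apart.

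The calls for JUN and ATF3 turned on the setting of the test. With a robust variance prior their adjusted p were 0.0233 and 0.012, and without the 302 microRNA and small nucleolar RNA genes they were 0.0114 and 0.0075, both past the criterion. Sums of several marker lists of other cell types moved the same way. Fibroblast and mesenchyme markers summed to 192 and 228 FPKM in ECsXAV and 108 and 106 in CPC cultures, with 3 of 6 tested genes past the criterion and TCF21 under 0.1 FPKM in every library. Smooth muscle markers summed to 315 and 287 against 173 and 198 FPKM, with 1 of 5 past the criterion, and hepatic and endoderm markers to 42.6 and 35 against 16.6 and 18.8 FPKM, with 3 of 4. All of these were lower in both CPC libraries. Proliferation genes summed to 61.8 and 52.2 against 20.7 and 21 FPKM, with 5 of 6 past the criterion. Skeletal muscle markers went the other way, at 2.36 and 2.91 against 24.5 and 18.3 FPKM, with 1 gene tested and past the criterion. The endothelial sum differed less, at 27.6 and 28.9 against 25.2 and 23.7 FPKM. The part of these markers in the JUN and ATF3 values was not tested.

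The promoters of JUN and ATF3 are shown because these genes were the pair with non-overlapping groups among the tested members. Those of FOS, FOSB and EGR1 are shown because their means were higher in CPC, though the groups of FOS and EGR1 overlapped. The windows of FOSL2, JUNB and JUND are not printed. This choice followed the expression values, and a link of the letters to those values was not tested. Each sequence is the 150 bases before the start site, 5′ to 3′ on the strand of the gene, from the RefSeq promoter table (assembly GRCh38.p14) and placed on GRCh37 by exact match. Capitals mark TGACNTCA, TGACGT, the CArG box and TATAAA on either strand.
JUN, chr1:59249720-59249869, minus strand: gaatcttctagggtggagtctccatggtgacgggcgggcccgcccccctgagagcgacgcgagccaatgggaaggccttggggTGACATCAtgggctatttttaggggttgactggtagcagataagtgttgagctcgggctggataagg
ATF3, chr1:212738599-212738748, plus strand: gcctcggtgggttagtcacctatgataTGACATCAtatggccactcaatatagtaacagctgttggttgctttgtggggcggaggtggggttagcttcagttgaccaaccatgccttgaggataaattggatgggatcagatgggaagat
FOS, chr14:75745381-75745530, plus strand: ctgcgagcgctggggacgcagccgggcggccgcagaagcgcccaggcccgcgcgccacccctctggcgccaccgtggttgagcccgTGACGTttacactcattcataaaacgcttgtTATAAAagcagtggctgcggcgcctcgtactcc
FOSB, chr19:45971104-45971253, plus strand: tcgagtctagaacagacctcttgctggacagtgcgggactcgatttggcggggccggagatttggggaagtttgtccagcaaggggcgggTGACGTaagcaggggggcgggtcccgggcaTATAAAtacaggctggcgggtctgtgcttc
EGR1, chr5:137801018-137801167, plus strand: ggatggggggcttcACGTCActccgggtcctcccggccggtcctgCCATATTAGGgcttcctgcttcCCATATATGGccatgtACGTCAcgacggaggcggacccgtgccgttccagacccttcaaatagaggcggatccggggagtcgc

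JUN and the first of the 2 ATF3 windows carry the same 8 letters, TGACATCA. The first base of these letters lies 67 bases before the start site of JUN and 123 before that of this ATF3 window. The second ATF3 window, which is not printed, held no match to TGACNTCA. Which ATF3 start site was in use was not tested. The table held windows of 250 bases before to 50 after the start for 8 of the 10 members, all but FOSL1 and MYC, with 1 window each and 2 for ATF3. Over the whole window, TGACNTCA, which covers the cAMP response element and the variant of JUN, matched in JUN, ATF3 and JUND and in 7.72% of all 35116 windows. JUND, whose groups overlapped, has its match 200 bases before its start, and there TGACGTCA also holds the shorter TGACGT on both strands. TGACGT, the core of the cAMP response element, matched in FOS, FOSB, FOSL2, JUND and EGR1 and in 7.98% of all windows. In FOS, FOSB and FOSL2 it lies 64, 60 and 66 bases before the start.

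Within these windows the CArG box, bound by serum response factor, matched only in EGR1 among the 8 members, and in 1.29% of all windows. The EGR1 matches lie at 105 and 83 bases before the start. Bases further than 250 before a start were not searched, so sites there, in FOS for example, would be missed. TGANTCA, the AP-1 site, matched only in FOSL2 among the 8, just after its start, and in 7.71% of windows, and GCGNGGGCG, the EGR site, only in EGR1 itself and in 9.43%. TATAAA matched in FOS, FOSB, JUNB and the second window of ATF3 and in 11.5% of windows. CACGTG, the E-box bound by MYC and MAX, matched in none of the 8 members and in 7.26% of windows. These are matches of letters, and binding was not measured.

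JUNB and JUND differed between groups by less than JUN did, and their libraries overlapped. JUNB, which can oppose JUN at some targets, had 8.26 and 12.5 FPKM in ECsXAV and 7.48 and 8.94 in CPC cardiomyocytes, a log2 difference of -0.28 ± 0.22 (SE, limma adjusted p = 0.553). JUND, the subunit expressed most steadily in resting cells, had 41.7 and 57.1 FPKM in ECsXAV and 29.5 and 46.1 in CPC cardiomyocytes, a log2 difference of -0.39 ± 0.26 (SE, limma adjusted p = 0.501). The 95% interval of JUNB ran from -0.84 to 0.27 and that of JUND from -1.08 to 0.29 and so reached just past 2-fold. JUNB overlaps HOOK2 on the opposite strand, and strand use in the FPKM values was not stated. HOOK2 itself had 9.27, 9.08, 7.71 and 8.42 FPKM in the same order of libraries.

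Within the JUN family, the shares of all 3 genes did not overlap between groups. The shares are parts of 1 sum, so they are not 3 separate results. In level, the groups did not overlap for 49.8% of all genes tested, and among these 3 genes only for JUN. JUN supplied 38 and 35.9% of the summed JUN, JUNB and JUND FPKM in ECsXAV and 25.9 and 25.7% in CPC cardiomyocytes, a mean of 36.9% ± 1.5 against 25.8% ± 0.136 (SD, n = 2). JUND supplied 51.8 and 52.6% in ECsXAV and 59.1 and 62.2% in CPC cardiomyocytes, and JUNB 10.2 and 11.5% against 15 and 12.1%. The ratio of JUND to JUN was 1.36 and 1.47 in ECsXAV and 2.28 and 2.42 in CPC libraries. A ratio within a library is not moved by the scaling of that library, but it shows only that the genes differed unequally, and these shares were looked at after the levels were known.

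**Figure D2:**
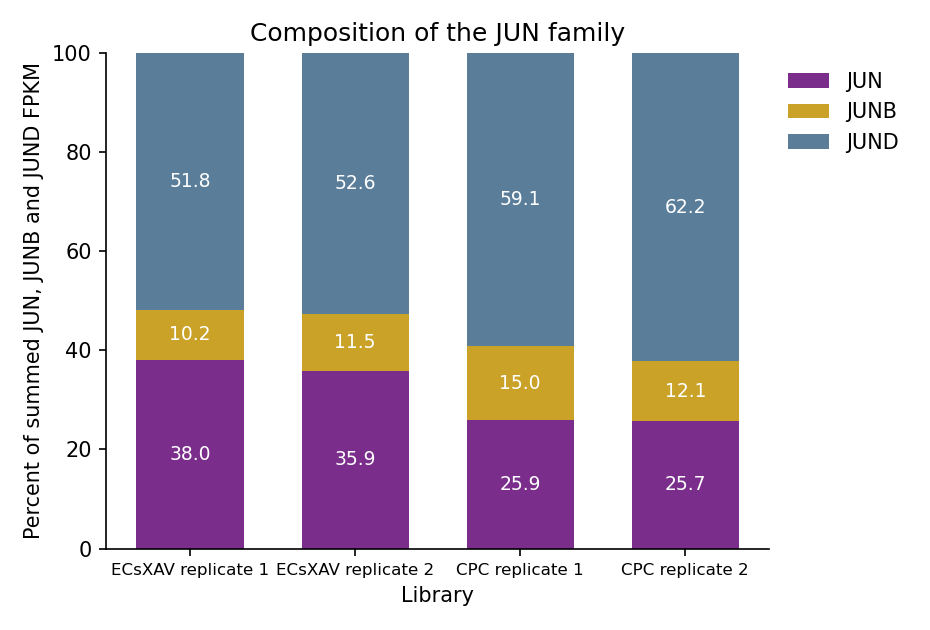
Stacked bars of the percent of summed JUN-family FPKM (vertical axis) that JUN, JUNB and JUND supplied in each of the 4 libraries. The JUN share is 38 and 35.9% in the ECsXAV bars and 25.9 and 25.7% in the CPC bars, and JUND is the largest share in every bar.

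FOS and EGR1 ran opposite to JUN, with higher means in CPC cardiomyocytes, but 1 CPC library lay within the ECsXAV range. FOS, the prototype AP-1 partner of JUN, had 6.26 and 7.83 FPKM in ECsXAV and 12.2 and 7.55 in CPC cardiomyocytes, a log2 difference of 0.41 ± 0.24 (SE, 95% interval -0.22 to 1.04, limma adjusted p = 0.465). CPC replicate 1 alone stood above the other 3 libraries, and its excess over CPC replicate 2 was beyond counting error, with 458 and 261 reads and a ratio of replicate 2 to replicate 1 of 0.62 (95% interval 0.531 to 0.724, exact binomial). EGR1, a zinc finger factor induced by the same serum response pathway, had 8.04 and 11.7 FPKM in ECsXAV and 14.1 and 10.4 in CPC cardiomyocytes. Its log2 difference was 0.30 ± 0.23 (SE, 95% interval -0.29 to 0.89, limma adjusted p = 0.558). Again CPC replicate 1 was highest, while CPC replicate 2 lay below ECsXAV replicate 2.

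The ratio of JUN to FOS was 4.89 and 4.97 in the ECsXAV libraries and 1.06 and 2.52 in the CPC libraries. Summed over families, JUN-type FPKM exceeded FOS-type FPKM by 8.98 and 9.78 times in ECsXAV and 3.4 and 6.39 times in CPC cardiomyocytes. Both ratios were higher in both ECsXAV libraries, and in each case the CPC libraries lay further apart than the ECsXAV libraries.

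FOSB was higher in both CPC libraries at a low level. FOSB, a FOS relative whose truncated splice form is known to build up in cells under chronic stimulation, had 0.367 and 0.353 FPKM in ECsXAV and 0.903 and 0.951 in CPC cardiomyocytes. The CPC mean was 2.57 times the ECsXAV mean, at 0.927 ± 0.0343 against 0.36 ± 0.00966 FPKM (SD, n = 2), and the difference between groups on the log2(FPKM + 1) scale, 0.50, was 13.8 times the larger replicate difference. FOSB was below the filter and so was not among the genes tested. In the fit without a filter its unadjusted p was 0.00136 and its adjusted p 0.0788 (limma). From the length of the current transcript the values stand for about 27, 13, 57 and 55 reads, and the counting interval of the ratio ran from 1.8 to 3.86 (95%, exact binomial), which covers counting error only. The ratios of replicate 2 to replicate 1 were 0.963 in ECsXAV and 1.05 in CPC. Their counting intervals ran from 0.455 to 1.93 and from 0.701 to 1.52 (95%, exact binomial). Counting error alone thus allows a wider spread than these replicates showed. The multiple of 13.8, the SDs and the unadjusted p rest on that close agreement. The full-length transcript NM_006732 supplied 98.5 to 100% of FOSB FPKM in the 4 libraries, and the truncated form NM_001114171 at most 1.47%. FOSB overlaps ERCC1 on the opposite strand. ERCC1 had 32.8, 38.7 and 33 FPKM in ECsXAV replicates 1 and 2 and CPC replicate 1 and was listed at 0 in CPC replicate 2, an exact 0 that can be a failed estimate. The part of ERCC1 reads in the FOSB values was not tested. The sum of 6 skeletal muscle markers was also higher in the CPC cultures, at 2.36 and 2.91 against 24.5 and 18.3 FPKM. Of these markers, 5 were under 1 FPKM in every library, so 1 gene made up most of the CPC sums. That gene was the only one tested, and it passed the criterion. MYOD1, MYF5 and PAX7 were under 0.1 FPKM in every library. The fibroblast, smooth muscle and hepatic sums given above were lower in both CPC libraries. The part of any of these markers in the FOSB values was not tested.

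FOSL2, a FOS relative without the transactivation domain of FOS, had 2.29 and 2.78 FPKM in ECsXAV and 1.58 and 3.03 in CPC cardiomyocytes, and the CPC libraries enclosed those of ECsXAV (log2 difference -0.13 ± 0.25, SE, limma adjusted p = 0.839). Its CPC replicates differed 1.92-fold (95% interval 1.52 to 2.44, exact binomial), the widest replicate ratio among the tested members. FOSL1, an AP-1 subunit of migrating and transformed cells, had 0.0616 and 0.123 FPKM in ECsXAV and 0.0355 and 0.0386 in CPC cardiomyocytes. These values stand for 2, 2, 1 and 1 reads, and a difference was not detectable at this depth.

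MYC, a growth regulator that pairs with MAX, had 0.418 and 0.583 FPKM in ECsXAV and 0.577 and 0.497 in CPC cardiomyocytes. With 20, 14, 24 and 19 reads, the ratio of CPC to ECsXAV reads per depth was 1.14 with a counting interval from 0.71 to 1.84 (95%, exact binomial). Counting error alone therefore left room for a difference of over 1.5 times in MYC.

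**Figure D3:**
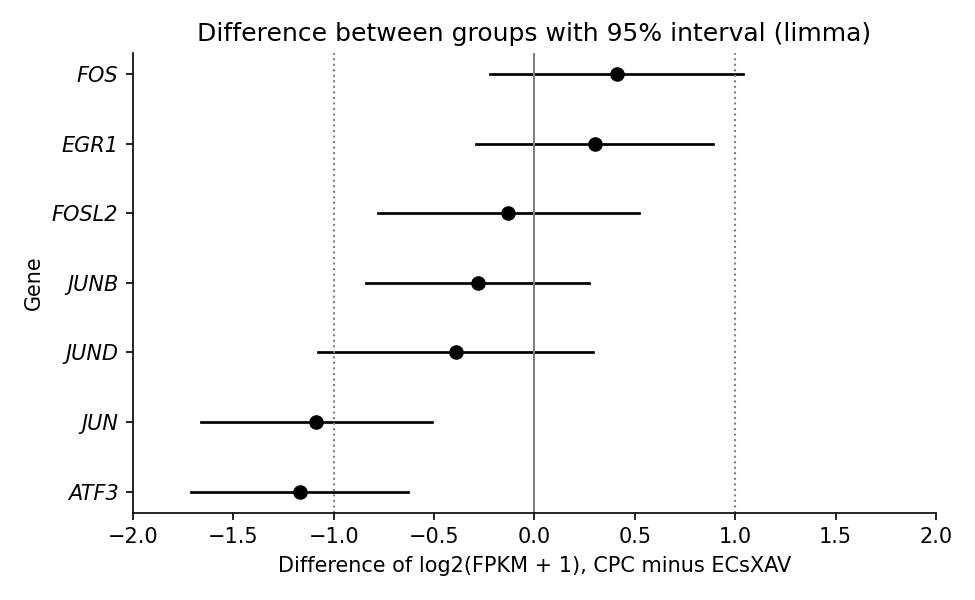
Difference of log2(FPKM + 1), CPC minus ECsXAV (horizontal axis), for the 7 tested genes, as points with 95% intervals from limma over 2 libraries a group; dotted lines mark 2-fold. The intervals of ATF3 (-1.71 to -0.63) and JUN (-1.66 to -0.51) lie wholly below 0, and those of the other 5 genes cross it.

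The replicates of a group differed in these genes by more than in most others, and in ECsXAV all in 1 direction. All 7 tested members were higher in ECsXAV replicate 2 than in replicate 1, as were 53.7% of all genes tested, and 5 of 7 were higher in CPC replicate 2, as were 48.8% of all genes. In CPC the exceptions were FOS and EGR1. The median size of the replicate difference over the members was 0.38 in ECsXAV and 0.52 in CPC on the log2(FPKM + 1) scale, against 0.12 and 0.19 over all genes tested. By member, from 72.7% (FOSL2) to 97% (JUNB) of all genes tested had a smaller replicate difference in ECsXAV, and from 58% (JUNB) to 95.2% (FOSL2) in CPC. For FOS, JUN, JUND, EGR1 and ATF3 the 95% counting interval of the ratio of replicates left out 1 in both groups, and for JUNB and FOSL2 it did so in 1 group each (the reads of ATF3 were estimated from the length of its transcript). Such intervals narrow as reads rise, and the share over all genes tested was not computed. The ratios of replicate 2 to replicate 1 were 1.27 and 1.47 for JUN, 1.37 and 1.56 for JUND and 1.45 and 0.738 for EGR1, in ECsXAV and CPC in that order.

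The wider class of immediate early genes shared this pattern between replicates. Of 25 tested genes of a list of 32 others, 22 were higher in ECsXAV replicate 2 and 19 in CPC replicate 2, with median differences of 0.20 and 0.26. Among markers of other cell types, the epithelial sum was 183 and 388 FPKM in ECsXAV replicates 1 and 2 and 172 and 131 in CPC replicates 1 and 2, so it moved with the members in ECsXAV only. Its part in these differences was not tested. ECsXAV replicate 2, the library in which the members were higher, also had the lowest depth, and the part of depth was not tested either.

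**Figure D4:**
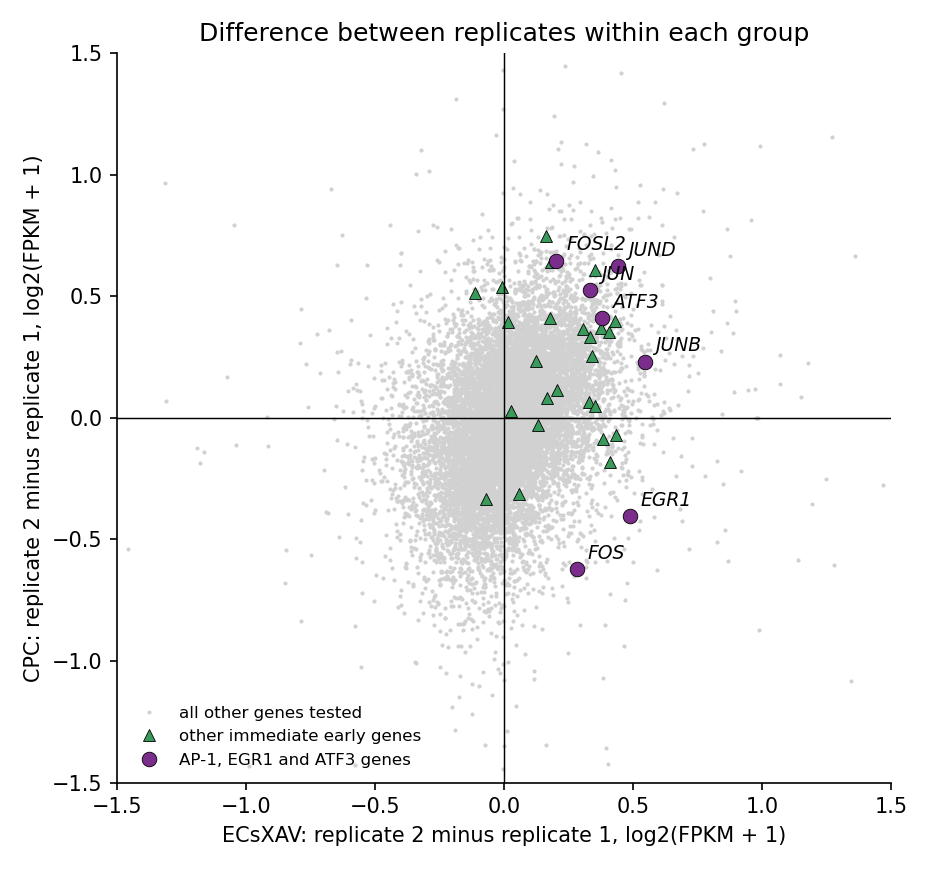
Replicate 2 minus replicate 1 in ECsXAV (horizontal axis) and in CPC (vertical axis), both in log2(FPKM + 1), for the 7 tested members (purple circles, named), 25 other immediate early genes (green triangles) and all other tested genes (grey; genes beyond 1.5 on either axis are not drawn). All 7 members lie right of 0, and FOS and EGR1 are the 2 that lie below 0 on the vertical axis.

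By Euclidean distance between centred log2(FPKM + 1) values over the 4 libraries, the tested genes most like JUN were TNNI3, the adult-type cardiac troponin I, and FITM1, a lipid droplet protein of muscle, both at 0.05, and RAP1GAP, which switches off the GTPase RAP1, at 0.07. ATF3 was the fourth nearest, at 0.12. TNNI3 had 61 and 79 FPKM in ECsXAV and 27.6 and 38.7 in CPC cardiomyocytes. For ATF3 the nearest genes were IGFBP7, a secreted binder of insulin-like growth factors, at 0.08, FITM1 at 0.10 and TNNI3 at 0.12, with JUN again the fourth at 0.12. With 4 points a gene, such nearness describes the order and size of 4 values and no more.

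ATF3 was the one member with several transcripts at a measurable level. NM_001030287 supplied 45.6 and 54.9% of ATF3 FPKM in ECsXAV and 47.2 and 24.6% in CPC cardiomyocytes, and NM_001674 supplied 27.5 and 25% against 33.4 and 45.1%. NM_001206486 supplied 26.2 and 15.6% in ECsXAV and 19.4 and 30.2% in CPC cardiomyocytes. The share of NM_001674 was higher in both CPC libraries, with means of 26.2% ± 1.81 in ECsXAV and 39.2% ± 8.27 in CPC (SD, n = 2). For the other 2 transcripts the groups overlapped, and the CPC replicates lay further apart than the group means. Shares of overlapping transcripts are estimates of Cufflinks from shared reads.

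Among 9 lists of related genes, 3 of 130 tested genes passed the criterion, near the 2.15% of all genes tested. Of all 12398 genes, 6292 were lower and 6106 higher in CPC cardiomyocytes. Of the other immediate early genes, 1 of 25 passed. CTGF, a matricellular growth factor gene, fell from 23.2 and 29.9 FPKM in ECsXAV to 6.83 and 7.09 in CPC cardiomyocytes (log2 difference -1.78 ± 0.15, SE, limma adjusted p = 0.0163). NR4A1, an orphan nuclear receptor, and ZFP36, which promotes decay of short-lived mRNAs, had log2 differences of 0.97 each and adjusted p of 0.0745 and 0.0598. Their values did not overlap between groups: NR4A1 had 5.3 and 6.94 against 11.4 and 14.6 FPKM, and ZFP36 4.81 and 6.57 against 12.3 and 11.6 FPKM. Immediate early genes thus lay on both sides of 0, with 15 of 25 lower in CPC and a median log2 difference of -0.12, and 12 of the 25 had an unadjusted p under 0.05, against 18.2% of all genes tested. The groups did not overlap for 18 of the 25, and 12 of these 18 were higher in ECsXAV. Over all 12398 genes, 6173 did not overlap, and 3149 of these were higher in ECsXAV.

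Of 15 listed AP-1 target genes, 7 reached the filter and were tested, and 1 of these passed the criterion. CCND1, cyclin D1, fell from 10 and 11.9 FPKM in ECsXAV to 3.73 and 4.53 in CPC cardiomyocytes (log2 difference -1.22 ± 0.15, SE, limma adjusted p = 0.0327). LOX, which crosslinks collagen, and VIM, the intermediate filament vimentin, had log2 differences of -1.13 and -0.75 (limma adjusted p = 0.081 and 0.101). In all, 6 of the 7 tested targets were lower in CPC, against 6292 of all 12398 genes, with a median of -0.38. Of the 7, 3 had an unadjusted p under 0.05 (limma), against 18.2% of all genes tested. The fibroblast and smooth muscle sums given above were higher in ECsXAV as well, and their part in these values was not tested.

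Of 13 tested feedback inhibitors of MAPK and EGR signalling, 1 passed, and it was higher in CPC. DUSP6, the phosphatase that inactivates ERK, had 5.68 and 5.83 FPKM in ECsXAV and 18 and 12.7 in CPC cardiomyocytes (log2 difference 1.26 ± 0.18, SE, limma adjusted p = 0.0451). SPRY4, a Sprouty inhibitor of receptor tyrosine kinase signalling, and DUSP8, a JNK phosphatase, had log2 differences of 1.03 and -0.83 (limma adjusted p = 0.0928 and 0.135). With quantile normalization the adjusted p of DUSP6 was 0.0556, which ended the call. The list's median was 0.36, and 9 of the 13 were higher in CPC, against 6106 of all 12398 genes. Of the 13, 6 had an unadjusted p under 0.05 (limma), against 18.2% of all genes tested. When either CPC library was left out, none of CTGF, CCND1 and DUSP6 kept an adjusted p under 0.05, with values from 0.0826 to 0.143. Without ECsXAV replicate 1 only CTGF still passed (limma adjusted p = 0.0458), and without ECsXAV replicate 2 none of the 3 did, with adjusted p from 0.0746 to 0.224.

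No gene passed in the other 6 lists, where unadjusted p under 0.05 were found for 2 of 14 bZIP partners, 6 of 22 upstream kinases and factors, 2 of 10 genes of the MYC network, 5 of 18 MYC targets, 4 of 12 stress genes downstream of ATF4 and 2 of 12 heat shock genes, against 18.2% of all genes tested. Their median log2 differences were 0.03, 0.03, 0.10, 0.02, 0.23 and -0.03. SRF, the serum response factor itself, had 16.5 and 18.9 FPKM in ECsXAV and 26.4 and 27.5 in CPC cardiomyocytes (log2 difference 0.58, limma adjusted p = 0.0837), while RPS6KA2 and RPS6KA3, which encode RSK kinases downstream of ERK, had differences of -0.65 and -0.53. Of the bZIP partners, MAF and the small partners MAFF and MAFK had log2 differences of 0.79, 0.53 and -0.40. In the MYC network, MXD3, MXD4 and MXI1, which compete with MYC for MAX, had -0.69, -0.46 and 0.42. MYCN, a relative of MYC in the same list, stood well above MYC in level. It had 18.6 and 21.6 FPKM in ECsXAV and 19.2 and 26.1 in CPC cardiomyocytes (log2 difference 0.15, limma adjusted p = 0.721).

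Among MYC targets, TFRC, the transferrin receptor, had the widest gap, with 47 and 44.4 FPKM in ECsXAV and 24.4 and 16.9 in CPC cardiomyocytes (log2 difference -1.13, limma adjusted p = 0.06). CCND2, cyclin D2, and NCL, nucleolin, had log2 differences of -0.56 and 0.44. In the list of stress genes linked to ATF4, the chaperone gene HSPA5 and the serine synthesis genes PSAT1 and PHGDH had 0.63, 0.41 and -0.51. Of the 12 genes in that list, 10 were higher in CPC, against 6106 of all 12398 genes, with a median of 0.23. A link of these genes to the ATF3 values was not tested. For HSPB1, a small heat shock protein of muscle, the cochaperone BAG3 and the mitochondrial chaperonin HSPE1 the differences were -0.65, -0.48 and -0.24. All of these lacked an adjusted p under 0.05.

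**Figure D5:**
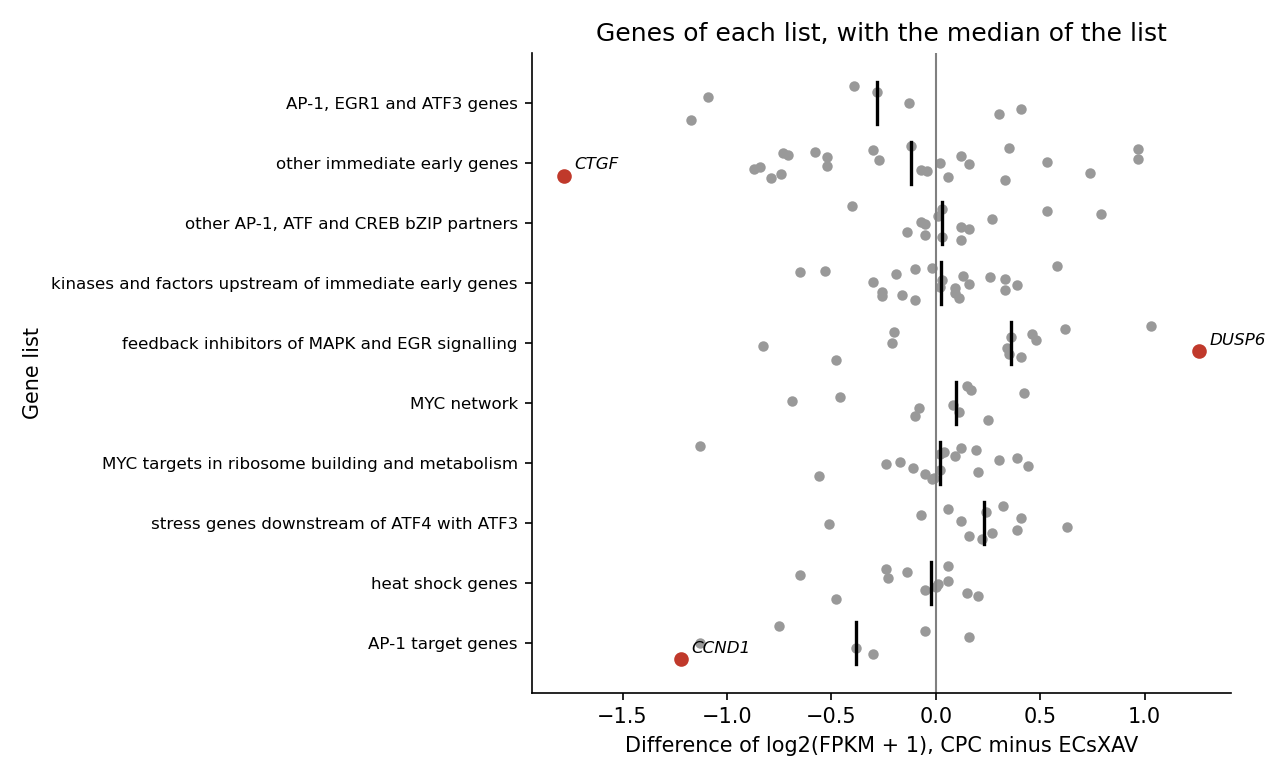
Difference of log2(FPKM + 1), CPC minus ECsXAV (horizontal axis), for each tested gene of the members and of 9 related lists (rows), with black bars for the median of a list and red, named points for genes past the criterion. CTGF and CCND1 lie below -1 and DUSP6 above 1, and no member is red.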

How the data were processed

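Poly-A RNA was sequenced by the authors, who computed the deposited FPKM values per gene and per RefSeq transcript with Cufflinks and UCSC annotations on hg19. The submitters' processing notes also name TopHat 1.3.3. Scaling between libraries and strand use were not given for FPKM in the sources used here. For the 554 symbols with several loci, the row with the highest mean was used.

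Genes with a mean of at least 1 FPKM (12398 of 23615) were compared with limma 3.58.1 (R 4.3.3), applied to log2(FPKM + 1) with a variance trend and Benjamini-Hochberg adjustment over all of them. This scale understates the fold change of low genes. The limma step was tested on simulated data. The FPKM steps of 2135 low single-transcript genes gave relative depth, and 90.4% of these came out as whole reads (up to 300, tolerance 0.02). No count test was run. Intervals from reads cover counting error only.

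The members and gene lists were chosen with earlier results of these data known, and 1 listed gene is not reported here. Named were all members, the genes of each list past the criterion and, where fewer than 3 passed, those with the largest log2 differences up to 3, and the 3 genes nearest in pattern to each tested member with non-overlapping groups and over 2-fold. MYCN was named besides, for its level beside that of MYC. Alternatives were another pseudocount, filter, normalization, variance prior, locus rule or table, a replicate block, no short RNA genes and each library left out.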

Additional observations from a re-analysis of the deposited data

How the results depend on the processing

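Across 16 alternatives JUN and ATF3 kept their direction, with log2 differences from -1.35 to -0.83 and from -1.38 to -0.96 and adjusted p from 4.4e-04 to 0.387 and from 5.8e-04 to 0.329. Both passed the criterion in 4 alternatives, so 2 members passed with robust eBayes, without short RNA genes, under a replicate block, and under that block without short RNA genes. With the replicate number as a block alone, the adjusted p of JUN and ATF3 were 0.0431 and 0.039, and 176 genes passed, 158 of them among the 266 that passed without it. The labels do not say that equal numbers mark a shared batch, and over genes the replicate differences of the groups had a rank correlation of 0.356 and a Pearson correlation of 0.0349. Of the 111 values of the tested members under alternatives, 1 changed direction: without CPC replicate 1, FOSL2 had 0.19, and its values without 1 library ran from -0.45 to 0.19.

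Against 266, the genes past the criterion were 20 with no filter and 152 at a mean of at least 5 FPKM, and 50 to 118 with 1 library left out, where the lone library of a group is taken to vary like the others. Against 3, the listed genes past the criterion were 0 with no filter, 6 with robust eBayes, 6 without short RNA genes and 6 with the replicate block as well, and 2 with the block alone, where DUSP6 had an adjusted p of 0.0602, and 0 to 1 with 1 library left out. The cause of these shifts was not tested. With 2 libraries a group, differences in JUND and FOS of up to about 2-fold cannot be told from the spread.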
